A study of Zea mays with 6 samples.

Results

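The benzoxazinoid genes Bx1 to Bx5 were all higher in maize leaves labelled as a ZmPP2C45 knockout than in wild-type leaves. At the fit the change was about 5-fold or more for Bx1, Bx2 and Bx3 and about 2-fold for Bx4 and Bx5. Fold changes were 26.4 for Bx1, 8.59 for Bx2, 5.01 for Bx3, 2.24 for Bx4 and 2.18 for Bx5. A 6th gene of the set, Zm00001d048634, had a fitted change of 1.50-fold and did not pass the test. The set was chosen by identifier, as the core benzoxazinoid genes Bx1 to Bx5 and Bx8, and all 6 identifiers were found among the 45953 features of the count table. All 6 were among the 21206 features with enough counts to be tested.

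Benzoxazinoids are indole-derived defence compounds of maize and other grasses that act against chewing insects and fungi. Bx1 forms indole from indole-3-glycerol phosphate, beside the tryptophan pathway and outside tryptophan synthase. Bx2, Bx3, Bx4 and Bx5 are cytochrome P450 enzymes of the CYP71C group that add oxygen to indole in turn and yield DIBOA. Glucosyltransferases then attach glucose, and the glucoside DIBOA-Glc is stored until damage to the leaf brings it together with a glucosidase. The early genes of the pathway lie close to each other on the short arm of chromosome 4.

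Leaf RNA of maize seedlings aged 2 weeks was sequenced after poly(A) selection in 3 PP2CKO libraries and 3 WT libraries. By the labels, PP2CKO is a line in which ZmPP2C45, a protein phosphatase 2C, was knocked out by genome editing in the inbred line KN5585, and WT is KN5585 itself. The labels do not say how many edited lines or plants PP2CKO stands for, nor whether replicates are separate plants, so the p-values rest on the spread among libraries that may be technical replicates. The title of the series names ZmPP2C45 and ZmBELL4 as suppressors of chemical defence against insects, and the comparison asks what the loss of ZmPP2C45 does to leaf transcripts.

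Library totals were 16314657 to 20502449 counts in PP2CKO and 15923668 to 16368195 counts in WT. The factors of TMM scaling, which corrects library size for the make-up of the library, were 0.869 to 0.982 in PP2CKO and 0.995 to 1.15 in WT, so scaling moved with the line. ZmPP2C45 was not analysed here, because no source used here pairs its name with an identifier, and the knockout label was therefore not checked. The plastid genes rbcL, psbA and psbB had 0 counts in all 6 libraries. Plastid transcripts are mostly without poly(A) tails, but the plastid features ZemaCp003 and ZemaCp024 had enough counts to be tested. The cause of the 0 counts was not tested, so rbcL, psbA and psbB say nothing about the leaf label. Nuclear leaf markers were not analysed here.

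The names of the members rest on the list that defined the set, since no table used here pairs these identifiers with names. The numbers of the identifiers can be set against the order of the named genes in the RefSeq annotation of a later B73 assembly. On chromosome 4 that annotation places bx6 first, then BX3, BX4, BX5, bx8, bx1, bx2 and Bx7. The identifiers listed as Bx3 (Zm00001d048702), Bx4 (Zm00001d048703), Bx5 (Zm00001d048705), Bx1 (Zm00001d048709) and Bx2 (Zm00001d048710) run in that same order. Zm00001d048634, listed as Bx8, does not. Its number lies 68 below that of Bx3, whereas bx8 lies between BX5 and bx1. On that side of BX3 the annotation has bx6, but no source used here pairs Zm00001d048634 with that name. The name of Zm00001d048634 is therefore in doubt, and it is called by its identifier below. It is kept in the set and placed last, as listed, and this place says nothing of a step in the pathway. Values over the set are also given for Bx1 to Bx5 alone.

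Of the 6 genes, 5 passed the test with a higher level in PP2CKO and 0 with a lower one. The test was the quasi-likelihood F test of edgeR, and the threshold was an adjusted p of 0.05 (Benjamini-Hochberg, over all 21206 tested features). Among all tested features 5.15% were higher by the same rule and 2.08% were lower. In whole leaves, more transcript per cell and more cells that make it cannot be told apart. The median log2 fold change was 1.74 over the 6 genes, 2.32 over Bx1 to Bx5 and -0.01 over all tested features. In all 6 genes the lowest PP2CKO library lay above the highest WT library, a pattern that 14.8% of tested features showed. The values below are CPM, counts scaled to a common library total, with TMM factors applied, and they were not divided by gene length, so they compare 1 gene across libraries and not different genes with each other.

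**Figure D1:**
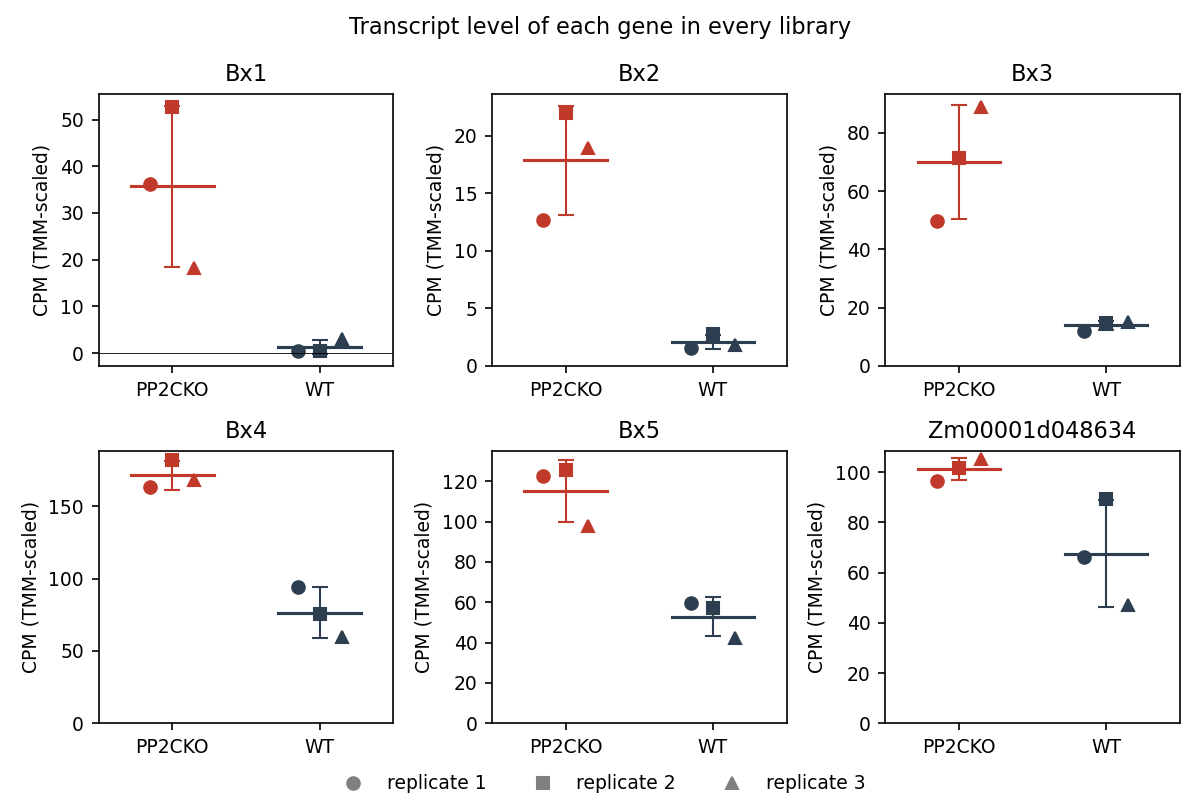
Each panel shows 1 gene, with CPM after TMM scaling on a linear axis, PP2CKO on the left and WT on the right. Points are libraries, marked by replicate number, horizontal lines are means and bars are SD (n = 3 per line). No PP2CKO point lies at or below a WT point, but for Zm00001d048634 the lines come close, at 96.7 CPM in the lowest PP2CKO library and 89.5 CPM in the highest WT library.

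Bx1, the indole-forming enzyme at the entry of the pathway, had the largest change of the set. It had 565, 802 and 366 counts in PP2CKO replicates 1, 2 and 3, against 8, 9 and 54 counts in WT replicates 1, 2 and 3. In CPM these were 36.2, 52.6 and 18.2 in PP2CKO and 0.492, 0.518 and 2.94 in WT. Every PP2CKO library was far above every WT library, and within WT replicate 3 was 5.99 times the lowest. The exact 95% Poisson intervals of the WT counts, which cover counting error only, were 3.45 to 15.8 for replicate 1, 4.12 to 17.1 for replicate 2 and 40.6 to 70.5 for replicate 3. The difference within WT therefore exceeded counting error.

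Mean Bx1 levels were 35.7 ± 17.2 CPM in PP2CKO libraries and 1.32 ± 1.41 CPM in WT libraries (SD, n = 3 each). The log2 fold change was 4.72 ± 0.56 SE (edgeR adjusted p = 0.000737), with a 95% interval of 11.4- to 60.9-fold. The lowest PP2CKO library was 6.18 times the highest WT library. Only 9 of the 21206 tested features had a larger fitted increase. The size of the change depended on WT replicate 3, without which the log2 fold change was 6.10 (edgeR adjusted p = 0.00137). That value lies above the upper end of the interval, which is 5.93 in log2. The SE of Bx1 was also larger in other fits, at 0.90 with DESeq2, 0.87 with limma voom and 0.81 with robust edgeR. The interval may therefore be too narrow.

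Bx2, the P450 that acts on indole, had the next largest change. It was at 12.7, 22.0 and 18.9 CPM in PP2CKO replicates 1 to 3 and at 1.60, 2.76 and 1.85 CPM in WT replicates 1 to 3. The lines were far apart, since the lowest PP2CKO library was 4.60 times the highest WT library. The means of 17.9 ± 4.73 and 2.07 ± 0.612 CPM (SD, n = 3 each, PP2CKO and WT) gave a log2 fold change of 3.10 ± 0.29 SE (edgeR adjusted p = 0.000258). A larger increase was fitted for 69 tested features.

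Bx3, the P450 that follows Bx2, was at 49.6, 71.3 and 88.9 CPM in PP2CKO replicates 1 to 3 and at 12.2, 14.6 and 15.1 CPM in WT replicates 1 to 3. The WT libraries lay close together and the PP2CKO libraries were spread over 1.79-fold. Means were 70.0 ± 19.7 CPM in PP2CKO libraries and 14.0 ± 1.57 CPM in WT libraries (SD, n = 3 each). The log2 fold change was 2.32 ± 0.21 SE (edgeR adjusted p = 0.000258), with a 95% interval of 3.63- to 6.91-fold. Larger log2 fold changes were fitted for 185 tested features.

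Bx4 and Bx5, the last P450 enzymes on the way to DIBOA, also rose, each by little more than 2-fold. Bx4 was at 163, 182 and 168 CPM in PP2CKO replicates 1 to 3 and at 94.3, 75.9 and 59.6 CPM in WT replicates 1 to 3. The means were 171 ± 9.78 CPM in PP2CKO libraries and 76.6 ± 17.3 CPM in WT libraries (SD, n = 3 each), with a log2 fold change of 1.16 ± 0.18 SE (edgeR adjusted p = 0.00313). For this gene the PP2CKO libraries were the more uniform ones, within 1.12-fold of each other, against 1.58-fold in WT.

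Bx5 was at 123, 126 and 97.7 CPM in PP2CKO replicates 1 to 3 and at 59.6, 57.0 and 42.1 CPM in WT replicates 1 to 3. The replicate numbered 3 was the lowest of each line. Means were 115 ± 15.3 CPM in PP2CKO libraries and 52.9 ± 9.46 CPM in WT libraries (SD, n = 3 each), and the log2 fold change was 1.12 ± 0.17 SE (edgeR adjusted p = 0.00355). The order of Bx4 and Bx5 was not settled, since their intervals overlapped almost wholly, at 1.72- to 2.92-fold for Bx4 and 1.68- to 2.83-fold for Bx5.

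Zm00001d048634, listed as Bx8 but with a name in doubt, was at 96.7, 102 and 105 CPM in PP2CKO replicates 1 to 3 and at 66.1, 89.5 and 47.3 CPM in WT replicates 1 to 3. The PP2CKO libraries were nearly level, and the WT libraries were spread over 1.89-fold. Means were 101 ± 4.36 CPM in PP2CKO libraries and 67.6 ± 21.2 CPM in WT libraries (SD, n = 3 each). The log2 fold change of 0.58 ± 0.20 SE, with a 95% interval of 1.11- to 2.03-fold, did not pass the test over all features (edgeR adjusted p = 0.103, unadjusted 0.0131). This call turned on single choices, since without WT replicate 2 the log2 fold change was 0.83 (edgeR adjusted p = 0.0352), without WT replicate 3 it was 0.36 (edgeR adjusted p = 0.312), and without a low-count filter it was 0.57 (edgeR adjusted p = 0.0339).

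**Figure D2:**
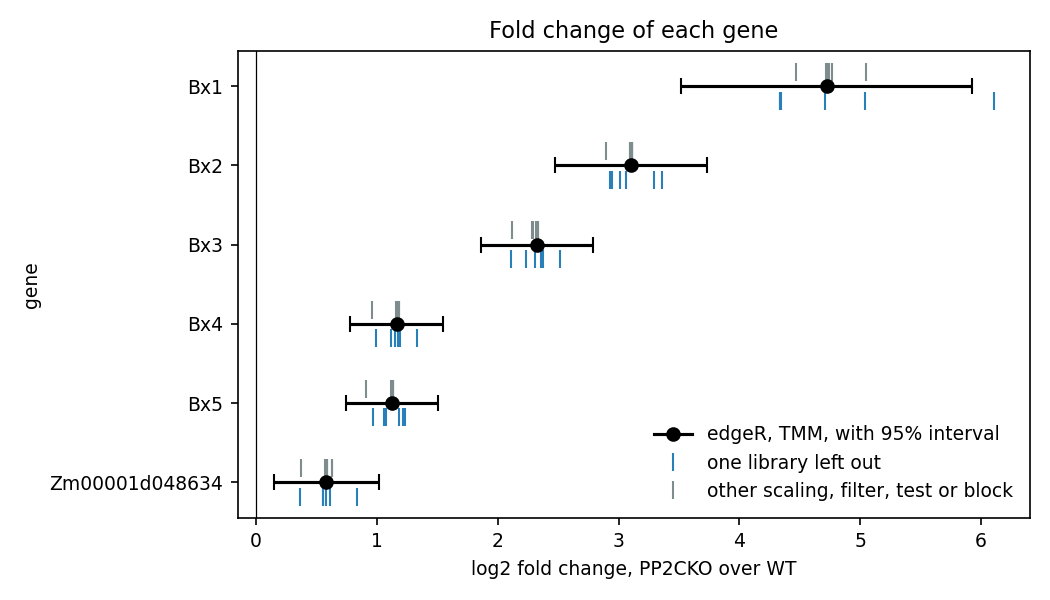
Black points are log2 fold changes of PP2CKO over WT from edgeR with TMM scaling, and bars are 95% intervals (n = 3 per line). Blue ticks are fits without 1 library and grey ticks are other scalings, filters, tests or a replicate block. The values run from 4.72 for Bx1 to 1.16 for Bx4 and 1.12 for Bx5, with 0.58 for Zm00001d048634, and the blue tick at 6.10 for Bx1 is the fit without WT replicate 3.

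Set against the whole table, Bx1, Bx2 and Bx3 were among the features of larger change. With an adjusted p below 0.05, 628 tested features were more than 2-fold higher in PP2CKO, and Bx1 to Bx5 were 5 of them. More than 4-fold higher were 225 features, among them Bx1, Bx2 and Bx3. More than 8-fold higher were 72 features, with Bx1 and Bx2, and more than 16-fold higher were 22 features, with Bx1. Bx1, Bx2 and Bx3, with the larger fold changes, also had fewer counts in WT, at 8 to 54, 26 to 48 and 198 to 277 a library. Bx4 had 1093 to 1534, Bx5 772 to 991 and Zm00001d048634 867 to 1556. Among these later genes the fold change did not follow the WT counts. The part that counting depth plays in the order of fold changes was not tested.

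**Figure D3:**
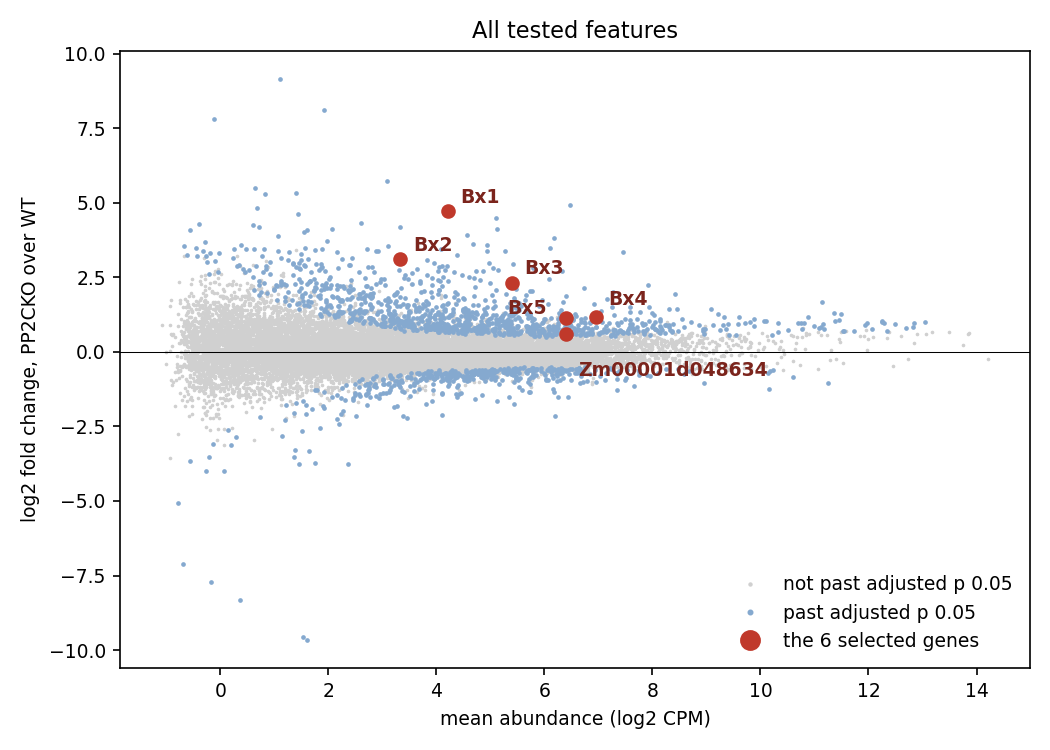
Each point is 1 of the 21206 tested features, with mean abundance in log2 CPM across and log2 fold change of PP2CKO over WT upward. Blue points passed an adjusted p of 0.05 and red points are the 6 selected genes. Bx1 at 4.72 and Bx2 at 3.10 lie well above the bulk of features of like abundance, and Zm00001d048634 at 0.58 did not pass.

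Ratios of members within a library do not depend on the scaling between libraries. For each gene the log2 ratio of its counts to those of the gene before it in the order Bx1, Bx2, Bx3, Bx4, Bx5 and Zm00001d048634 was compared between lines by exact two-sided permutation of the 6 libraries. With 3 against 3 libraries the smallest possible p is 0.1, so none of the 5 ratios could reach 0.05. The log2 ratio of Bx3 to Bx2 was 1.96 ± 0.27 in PP2CKO libraries and 2.77 ± 0.33 in WT libraries (SD, n = 3 each), without overlap (exact permutation p = 0.1, adjusted over the 5 ratios 0.167). That of Bx4 to Bx3 was 1.33 ± 0.40 in PP2CKO and 2.43 ± 0.49 in WT, again without overlap and with the same p-values. In both pairs every PP2CKO library had less of the later gene, relative to the earlier one, than every WT library.

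The log2 ratio of Bx5 to Bx4 was -0.58 ± 0.19 in PP2CKO libraries and -0.52 ± 0.13 in WT libraries (SD, n = 3 each), and the lines overlapped (exact permutation p = 0.6, the same after adjustment). The difference of -0.05 was smaller than the spread between replicates, and its sign is not settled. The log2 ratio of Zm00001d048634 to Bx5 was -0.18 ± 0.25 in PP2CKO and 0.32 ± 0.28 in WT, without overlap (exact permutation p = 0.1, adjusted 0.167). The ratio of Bx2 to Bx1 had the largest mean difference, at -0.90 ± 0.84 in PP2CKO and 1.11 ± 1.57 in WT, but the lines overlapped (exact permutation p = 0.2, adjusted 0.25). WT replicate 3, with its higher Bx1 count, had a log2 ratio of -0.66, below the 0.05 of PP2CKO replicate 3.

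**Figure D4:**
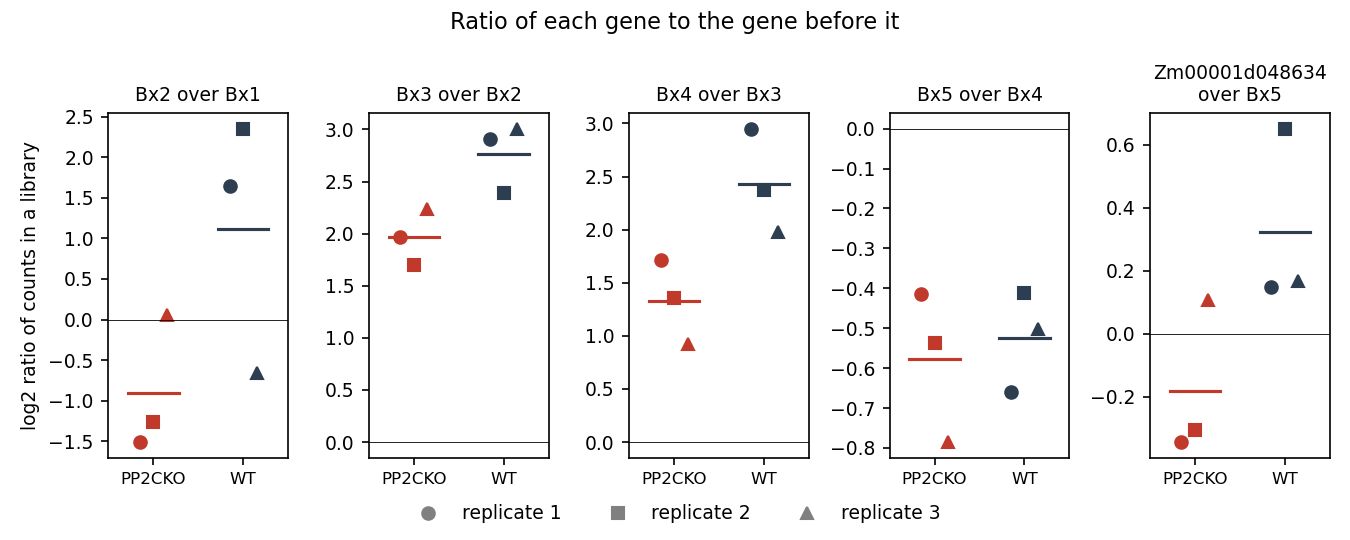
Each panel shows the log2 ratio of raw counts (count + 0.5) of 1 gene to the gene before it, per library, with PP2CKO on the left and WT on the right, and each panel has its own axis. Horizontal lines are means (n = 3 per line) and symbols mark the replicate number. The lines do not overlap for Bx3 over Bx2, Bx4 over Bx3 and Zm00001d048634 over Bx5, and overlap for the others.

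The members differed in which library of a line was highest. PP2CKO replicate 3 had the lowest Bx1 of its line at 18.2 CPM but the highest Bx3 at 88.9 CPM. WT replicate 3 had the highest Bx1 of its line at 2.94 CPM but the lowest Bx4, Bx5 and Zm00001d048634. In WT, Bx4 and Bx5 shared their order, with replicate 1 the highest and replicate 3 the lowest. In PP2CKO they did not, since replicate 2 was the highest for both but the lowest was replicate 1 for Bx4 and replicate 3 for Bx5. The summed CPM of all 6 genes was 481, 555 and 498 CPM in PP2CKO replicates 1 to 3 and 234, 240 and 169 CPM in WT replicates 1 to 3. The mean sums were 511 ± 39.0 CPM in PP2CKO and 214 ± 39.6 CPM in WT for the 6 genes, or 2.38-fold apart. For Bx1 to Bx5 alone they were 410 ± 38.0 CPM in PP2CKO and 147 ± 23.5 CPM in WT, or 2.79-fold apart (SD, n = 3 each). Such sums are not corrected for gene length, so genes with many counts weigh most in them.

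Likeness of profiles was measured as the root mean square difference of log2 CPM over the 6 libraries, after the mean of each feature was taken off. Profiles were not scaled for the size of the change, so features that change in the same direction by unlike amounts lie far apart. The closest pair of members was Bx4 and Bx5, at 0.13. Of the 19902 other features with a mean of at least 1 CPM, Bx5 was the 7th closest to Bx4, and Bx4 was the 13th closest to Bx5. Bx2 and Bx3 were 0.45 apart, with Bx3 the 13th closest to Bx2 and Bx2 the 40th closest to Bx3. Bx1, which had the largest change of the set, stood apart in this measure, with Bx2 as the nearest member at 1.37. Bx2 was the 32nd and Bx3 the 111th closest feature to Bx1, and Bx1 was the 3556th closest to Bx2.

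Outside the set, the features with profiles closest to the mean profile of the 6 genes were Zm00001d012047 and Zm00001d004348, both without a name in the sources used here. Zm00001d012047 was at 7.82, 8.27 and 6.42 CPM in PP2CKO replicates 1 to 3 and 1.29, 1.61 and 1.91 CPM in WT replicates 1 to 3, and differed from the mean profile by 0.14 (log2). Zm00001d004348 was at 76.1, 87.6 and 94.5 CPM in PP2CKO and 18.3, 22.2 and 21.9 CPM in WT, and differed by 0.15. The features were picked for this pattern, so the values are a description. Of the 19903 features with a mean of at least 1 CPM, Bx3 was the 9th closest to the mean profile and Bx2 the 159th. Bx4 was the 327th, Bx5 the 363rd, Zm00001d048634 the 2016th and Bx1 the 19273rd. The mean profile was thus close to that of Bx3 and less so to those of the other members. Each member is itself part of that mean, and the size of its change weighs in the measure, so these ranks are also a description.

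The features numbered around the members were mostly not called. From 10 numbers below Zm00001d048634 to 10 above Bx2, the table held 85 features, of which 28 had no count in any library. Outside the members 36 were tested, and 1 was higher and 3 were lower in PP2CKO (edgeR adjusted p below 0.05). Their median log2 fold change was -0.06, and among all tested features 5.15% were higher and 2.08% were lower. In the narrower stretch from 10 numbers below Bx3 to 10 above Bx2, 9 others were tested, 1 was higher and 0 were lower, with a median of 0.15. The one that was higher, Zm00001d048711, has the number next to Bx2. It was at 46.8, 55.1 and 41.2 CPM in PP2CKO replicates 1 to 3 and 25.4, 29.2 and 15.9 CPM in WT replicates 1 to 3 (log2 fold change 1.02 ± 0.21 SE, edgeR adjusted p = 0.0155). Of the lower ones the largest changes were those of Zm00001d048687 at -1.28 ± 0.35 SE (edgeR adjusted p = 0.0426) and Zm00001d048691 at -1.08 ± 0.28 SE (edgeR adjusted p = 0.0344).

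Between the numbers of Bx5 and Bx1 the table held 1 feature, Zm00001d048707, which was looked up after the order of the named genes had been seen. It was at 23.7, 39.1 and 31.4 CPM in PP2CKO replicates 1 to 3 and 24.8, 24.8 and 20.9 CPM in WT replicates 1 to 3, and the lines overlapped. Its log2 fold change of 0.42 ± 0.19 SE did not pass the test (edgeR adjusted p = 0.217). It lies where the RefSeq order has bx8, but no table pairs it with a name, so it is given none. Its fitted change was smaller than that of each of Bx1 to Bx5, and whether it differs from theirs was not tested.

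**Figure D5:**
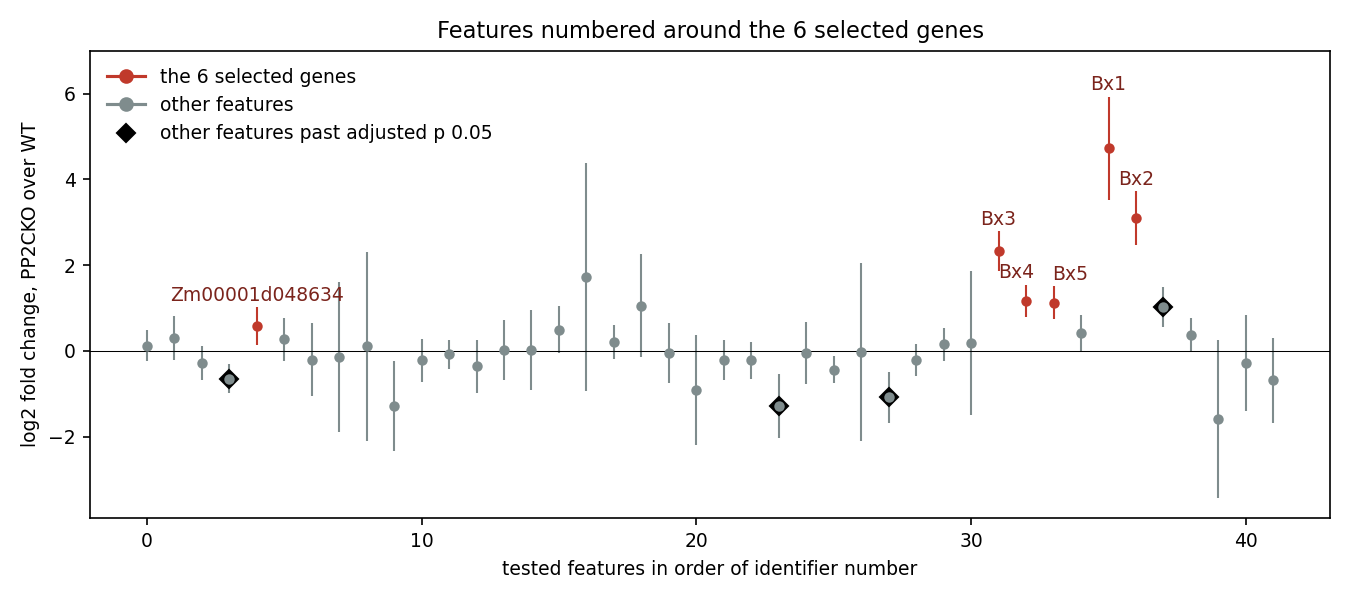
Tested features are placed in order of identifier number, from 10 numbers below Zm00001d048634 to 10 above Bx2, at even steps that are not distances. Points are log2 fold changes of PP2CKO over WT with 95% intervals (n = 3 per line), red for the 6 selected genes, and black diamonds mark other features past an adjusted p of 0.05. Bx1 at 4.72, Bx2 at 3.10 and Bx3 at 2.32 are the highest points, and of the other features 1 was higher and 3 were lower.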

How the data were processed

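The authors deposited raw counts per gene, not normalized, in 1 column per library. Reads were cleaned of adaptors and low quality and mapped with STAR 2.4.0j to B73 v4, per the labels' protocols. How genes were counted (tool, annotation, strand) is not given in the sources used here. Reads shared by related genes, such as the P450 genes Bx2 to Bx5, or by overlapping genes, may have been assigned together or split, and alleles of KN5585 unlike those of B73 may lose reads in each line.

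Counts were tested with edgeR 4.0.16 in R 4.3.3 (quasi-likelihood F test, TMM scaling, genotype as the only term, all 6 libraries). Features passed filterByExpr with a minimum count of 10 and a minimum total of 15. P-values were adjusted over all 21206 tested features. SE is the log2 fold change divided by the square root of F. Log2 CPM used a prior count of 2. On simulated counts with 100 seeded changes of each size, the procedure recovered 60% of 2-fold and 86% of 4-fold changes. Of the features without a seeded change 0.0762% were called. A change that did not pass is therefore not shown to be absent. Alternatives were other scalings and filters, DESeq2 1.42.0, limma 3.58.1 (voom), robust edgeR, a replicate block and each library left out.

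Names come from the list that defined the set. RefSeq's table for assembly Zm-B73-REFERENCE-NAM 5.0 matched 0 of 43789 nuclear identifiers and gave only the order of the bx genes; other pathway genes and leaf and root markers were therefore not analysed. The members, lists and rules were chosen with earlier results of these data known. Named genes were the members, the closest profiles with a mean of at least 1 CPM, and called neighbours by number. Same-numbered libraries were not taken as pairs.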

Additional observations from a re-analysis of the deposited data

How the results depend on the processing

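Bx1, Bx2, Bx3, Bx4 and Bx5 were higher in PP2CKO and past the threshold in each of 15 alternatives, with highest adjusted p-values of 0.0351 for Bx1 (robust edgeR), 0.00463 for Bx2, 0.00465 for Bx3, 0.0229 for Bx4 and 0.0269 for Bx5. Their log2 fold changes ran over 4.33 to 6.10, 2.89 to 3.36, 2.11 to 2.52, 0.96 to 1.33 and 0.91 to 1.23 in that order. Library size alone moved the median of all tested features by -0.22, to -0.23, and gave 4.46, 2.89, 2.12, 0.96 and 0.91. Zm00001d048634 ran from 0.36 to 0.83 and passed the threshold in 2 alternatives, without a low-count filter (0.57) and without WT replicate 2 (0.83). Without a low-count filter 2453 features were called, against 1534; leaving out 1 library, which leaves fewer libraries by construction, gave 462 to 1550. The log2 ratio of Bx5 to Bx4 differed between lines by -0.05, and by -0.136 to 0.0502 with 1 library left out, so its sign is not settled. Other causes were not tested. Library size alone gave 680 higher and 1604 lower features, or 29.8% higher, against 1092 and 442, or 71.2%. A replicate block gave 1860 calls, with 5 of the 6 genes among them and Zm00001d048634 at 0.63 (edgeR adjusted p = 0.0548). Libraries with the same number had deviations correlated at 0.05, 0.09 and 0.08, and those with different numbers at -0.07 to -0.01. Every library correlated best with its own number, so whether same-numbered libraries are pairs is not settled. Depth limits Bx1 most, since WT replicates 1 and 2 held 8 and 9 counts.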
